A study of Arabidopsis thaliana with 8 samples.

Results

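Unstressed shoots of Arabidopsis thaliana lacking the heat-stress-associated gene HSA32 were compared with wild-type shoots at 22 °C. The comparison rested on 4 of the 8 microarrays of the study, chosen by their titles. There were 2 arrays of the knockout (ecotype Col-0, the T-DNA insertion allele GABI-268A08 of HSA32, AT4G21320) and 2 of the Col-0 wild type. All 4 came from whole shoots of seedlings aged 15 days that had been held at 22 °C for 2 h. The other 4 arrays came from the same genotypes after 2 h at 37 °C. They shared the fit, the filter on dim signals and the estimate of spread, and are set beside the comparison at 22 °C where stated. The series design states that every array received RNA from its own pool of plants. The mutant was represented by a single insertion allele, so the loss of HSA32 and anything else carried by that line cannot be told apart. In RNA from whole shoots, fewer cells of a type and less RNA per cell cannot be told apart either.

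HSA32 is needed for long-term acquired thermotolerance, the ability of a plant to survive a severe heat challenge long after a milder one. In wild-type plants it is induced by heat together with the heat shock proteins, chaperones that bind unfolding proteins and return them to a folded state. Chaperone genes are kept low in unstressed leaves by the restraint of heat shock transcription factors. Growing shoots at 22 °C instead express genes of photosynthesis, of the plastid genome and of cell wall loosening, and their levels of cold, touch and wounding genes move readily with handling.

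The array, ATH1, reads each transcript with a set of short probes (a probe set), and the deposited value is 1 signal per probe set on a linear scale. Control probe sets and the dimmest 30% were left out, which left 15919 of 22746 probe sets for testing. The median signal was 160 and 181 in the knockout arrays and 164 and 165 in the wild-type arrays. Shoot identity was visible in the nuclear photosynthesis genes, of which PSAE-1, a photosystem I subunit gene, read 23659 and 16115 in the knockout and 16421 and 16041 in wild type. Of 10 root markers 1 was tested, EXPA18, at 144.5 and 96.0 against 91.5 and 121, and no flower or seed marker had a probe set paired with a single gene.

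The 4 control arrays did not sort by genotype. Differences of at least 2-fold separated 19.5% of the tested probe sets between knockout replicate 1 and wild-type replicate 1, 2.75% between knockout replicate 1 and wild-type replicate 2, 8.44% between knockout replicate 2 and wild-type replicate 1, and 1.36% between knockout replicate 2 and wild-type replicate 2. Within a genotype the shares were 7.25% in the knockout and 11.8% in wild type. Both knockout arrays were therefore closer to wild-type replicate 2 than to each other. Wild-type control replicate 1 stood apart from the other 3. Its position on the first principal component of the control arrays was -58.7, against 42.8 and -2.77 for the knockout and 18.7 for wild-type replicate 2, and that component held 67.1% of the variance. The source description of the same array names heat treatment without the word control, while its title calls it a control. The small heat shock protein gene AT1G52560 read 6.40 on it, far below the 18657 and 26376 of heated wild type. Of 25 tested heat-related genes, however, 22 were higher on it than on wild-type replicate 2, beside 52.0% of all tested probe sets. The heat-induced gene AT2G20560, for example, read 223 on it and 31.9 on replicate 2, with 11023 and 19186 in heated wild type. The cause was not tested. A control probe set for 25S ribosomal RNA did separate the genotypes, with 385 and 1363 in the knockout and 16013 and 14840 in wild type, and its part in the results was not tested. The 3′ to 5′ signal ratio of actin, a sign of RNA integrity, was 1.33 and 1.38 in the knockout and 1.68 and 1.36 in wild type. For ubiquitin it was 1.64 and 1.42 against 1.77 and 1.45, and for GAPDH 0.88 and 1.15 against 1.10 and 1.10. Wild-type replicate 1 was thus the highest control array for actin and ubiquitin but not for GAPDH. Many of the counts, list medians and leading genes below are also given without wild-type replicate 1.

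**Figure D1:**
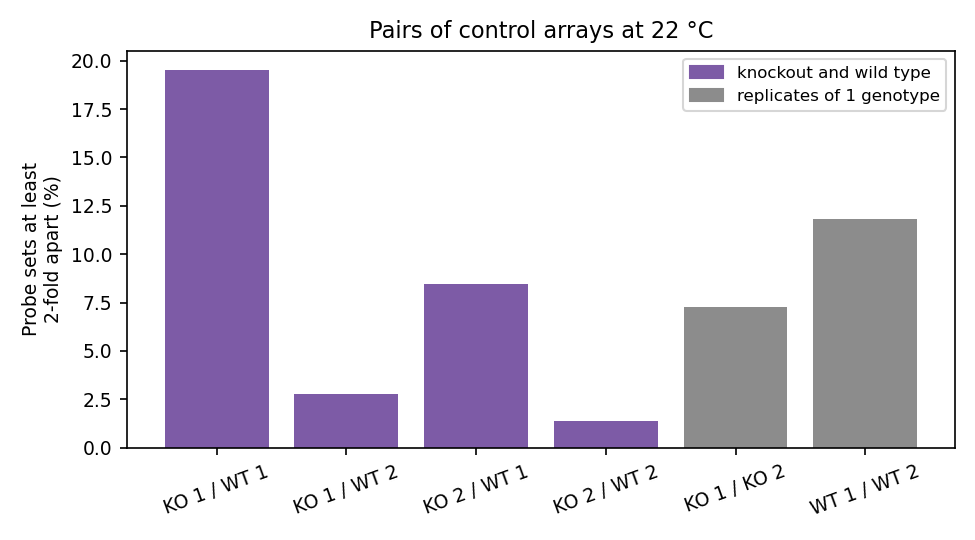
Share of the 15919 tested probe sets at least 2-fold apart on the log2(signal + pseudocount) scale, for each of the 6 pairs of control arrays (KO, knockout; WT, wild type; 1 and 2, replicates). Both pairs that set a knockout array beside wild-type replicate 2 (2.75% and 1.36%) lie below the pairs of replicates of 1 genotype (7.25% and 11.8%).

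No transcript passed the test between knockout and wild type at 22 °C. Limma called 0 of 15919 probe sets at an adjusted p under 0.05 (0% of those tested), with a smallest adjusted p of 1.00. At an unadjusted p under 0.05 there were 82 (0.515%), 48 with the knockout higher (0.302%) and 34 with it lower (0.214%). Across all tested probe sets the log2 fold change had a median of -0.00, quartiles of -0.22 and 0.22, and a median standard error of 0.40. It was above 0 for 49.8% of them. By a second rule that uses no test, 76 probe sets (0.477%) had both knockout arrays above both wild-type arrays with a mean difference of at least 2-fold. The same rule in the other direction gave 49 (0.308%). Without wild-type replicate 1 the median difference of those 76 was 0.68 instead of 1.17, and 23 of them stayed at 2-fold or more. For the 49 it was -0.68 instead of -1.21, and 11 stayed at 2-fold or more. Wild-type replicate 1 was the more distant of the wild-type arrays for 61 of the 76 and for 43 of the 49. Both sets were chosen with that array included, and leaving out the more distant array must shrink a difference. The same counts were not made without any other control array. Of all tested probe sets, 11.7% had no overlap with the knockout higher and 9.49% had none with it lower, whatever the size of the difference.

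HSA32 itself was higher on both knockout arrays than on both wild-type arrays, without passing. Its signal was 1125 and 1247 in the knockout, against 657 and 230.0 in wild type. Wild-type replicate 1 lay nearer to the knockout than replicate 2 did. The means were 1186 ± 86.2 and 444 ± 302 (SD, n = 2 each), a log2 fold change of 1.52 ± 0.57 (standard error) with limma's adjusted p = 1.00. Without wild-type replicate 1 the difference was 2.23, and without wild-type replicate 2 it was 0.82. A signal of this size in the knockout means that the probe set reads RNA in the line labelled as a knockout. The position of these probes along the gene, before or after the T-DNA, was not known here, so this value does not check the labels.

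Genes beside HSA32 on the chromosome were examined next, since an insertion can alter transcription close to it. Of the 10 genes on each side, 7 had a probe set paired with a single gene and 2 of these passed the filter on dim signals. AT4G21323, the next gene on 1 side in the RefSeq order, read 63.6 and 146.1 in the knockout and 12.4 and 12.4 in wild type. Both knockout arrays lay above both wild-type arrays, and the log2 fold change was 1.62 ± 0.82 (limma's adjusted p = 1.00). Leaving out wild-type replicate 1 could not change it, since both wild-type arrays read 12.4. The mean signal of this gene over all arrays was 65.9, near the filter's cutoff of 61.7. That mean includes the knockout arrays compared here, which helped the gene to pass. The wild-type values lie under the pseudocount of 29.1 added before taking logarithms, so the size of this fold depends on it, and the log2 fold change was 2.41 with a smaller one and 0.76 with a larger one. After heat this gene read 4 and 56.1 in the knockout and 221.7 and 10.7 in wild type, and the genotypes overlapped. AT4G21310, the next gene on the other side, read 258.5 and 219.5 against 208 and 277, and the genotypes overlapped. The other 5, among them the subtilase gene SBT3.12 and the genes B70 and B120, had mean signals over all arrays from 9.16 to 46.1 and were not tested.

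The smallest p among genes with the knockout higher belonged to AT3G22850, annotated in Arabidopsis as an aluminium-induced protein. Its signal was 718 and 989.5 in the knockout and 282 and 322 in wild type. The genotypes did not overlap, and the log2 fold change was 1.40 ± 0.36 (limma's adjusted p = 1.00). Without wild-type replicate 1 it was 1.31. In heated shoots it read 810.0 and 1333 in the knockout and 285 and 341 in wild type, a log2 fold change of 1.65 ± 0.36 (adjusted p = 1.00). AT3G22850 was thus above wild type on each of the 4 knockout arrays at both temperatures.

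AT1G27040 encodes NPF4.5, a member of the nitrate and peptide transporter family. It read 137 and 103 in the knockout and 25.4 and 17.7 in wild type, a log2 fold change of 1.55 ± 0.43. Its wild-type mean lay under the pseudocount, and without wild-type replicate 1 the difference was 1.66. After heat it read 159 and 91.5 against 28.3 and 80.5, so the genotypes again did not overlap. AT5G53880 read 1076 and 1052 in the knockout and 337 and 527 in wild type, a log2 fold change of 1.28 ± 0.37, or 0.98 without wild-type replicate 1. Its knockout arrays differed by little and its wild-type arrays by more, with replicate 1 the lower. After heat it read 194 and 317 in the knockout and 140.5 and 192.5 in wild type, a log2 fold change of 0.52 ± 0.37.

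The other 8 genes with the smallest p and the knockout higher had log2 fold changes from 0.81 to 1.32. AT5G66230, AT1G21810 and EXLA3 had mean signals over all arrays of 63.4, 64.8 and 70.0, near the filter's cutoff of 61.7. Those means include the knockout arrays compared here, whose high values helped these genes to pass. AT5G52390, with a mean of 80.2, was helped over the cutoff in the same way. AT4G04120 read 120 and 72.0 against 17.1 and 36.3, AT1G21810 read 106 and 82.1 against 33.6 and 18.2, and AT2G24390 read 68.2 and 102 against 12.4 and 39.7, with wild-type means under the pseudocount in all 3. AT5G52390 read 90.0 and 213 in the knockout and 43.5 and 39.4 in wild type. Here the wild-type arrays were alike and the knockout arrays were apart. AT3G19440, AT5G66230 and AT2G27330 lay between 118 and 245.5 in the knockout and between 31.1 and 142 in wild type. EXLA3, an expansin-like gene, read 142.8 and 82.4 against 12 and 58.8, and its difference of 1.20 ± 0.47 became 0.66 without wild-type replicate 1.

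Among genes with the knockout lower, the smallest p belonged to AT2G05600, which read 31.4 and 32.3 in the knockout and 139 and 182 in wild type. The log2 fold change was -1.63 ± 0.45 (limma's adjusted p = 1.00) and -1.79 without wild-type replicate 1. AT5G20560 followed with 25.1 and 38.3 against 112 and 114.5, a log2 fold change of -1.24 ± 0.34, or -1.25 without wild-type replicate 1. The knockout signals of both genes lay near the pseudocount of 29.1, so the size of these folds depends on it. With a smaller pseudocount the log2 fold changes were -2.09 and -1.65, and with a larger one -0.90 and -0.63. Replicates of both genes were close together in each genotype. After heat neither gene kept a difference of that size. AT2G05600 read 142 and 75.1 in the heated knockout and 57.8 and 158 in heated wild type, a log2 fold change of 0.07 ± 0.45. AT5G20560 read 154 and 123 against 91.1 and 136, a log2 fold change of 0.25 ± 0.34. The tests of the difference between the temperatures did not pass for either gene (interaction 1.70 and 1.48, adjusted p = 1.00 for each).

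Of the genes with the knockout lower, 3 with high signals after heat had their highest control value on wild-type replicate 1. AT2G20560, a J-domain cochaperone gene whose product delivers clients to HSP70, read 9.50 and 11.4 in the knockout and 223 and 31.9 in wild type. AT1G21550 read 28.5 and 11.1 against 266 and 53.6. AT3G10020 read 2040 and 2895 against 7086 and 4434. After heat their signals lay between 11023 and 41030 on every array, with AT2G20560 at 21249 and 18092 in the heated knockout and at 11023 and 19186 in heated wild type. Their log2 fold changes at 22 °C were -1.65 ± 0.61, -1.70 ± 0.58 and -1.20 ± 0.37, and without wild-type replicate 1 they were -0.63, -0.78 and -0.86. The knockout means of AT2G20560 and AT1G21550 at 22 °C lay under the pseudocount, so the size of their folds depends on it. None passed.

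Of the other genes with the knockout lower, some showed the same lean on that array and some changed little without it. AT1G64500, which encodes a protein of the glutaredoxin family, read 343 and 437 in the knockout and 1715 and 689.6 in wild type, with -1.43 ± 0.51 on all arrays and -0.79 without wild-type replicate 1. AT3G16670 read 276 and 410.2 against 1279 and 559, with -1.26 ± 0.45 and -0.68. After heat AT3G16670 read 464 and 625.5 in the knockout and 1586 and 1141 in wild type, a log2 fold change of -1.27 ± 0.45, so both knockout arrays were below both wild-type arrays at each temperature. AT5G62130, of the Per1-like family, read 276 and 223 in the knockout and 697 and 374 in wild type at 22 °C. Its difference was -0.96 on all arrays and -0.54 without wild-type replicate 1. AT2G31460, AT1G62520, AT2G39690 and AT4G29580, the last a member of the cytidine deaminase family, had knockout signals from 10.2 to 108 and wild-type signals from 68.5 to 197, and their log2 fold changes went down to -1.34. The knockout means of AT2G31460 and AT4G29580 lay under the pseudocount. AT2G39690 had a mean signal over all arrays of 68.9, near the filter's cutoff of 61.7. That mean includes the wild-type arrays compared here, whose high values helped the gene to pass.

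**Figure D2:**
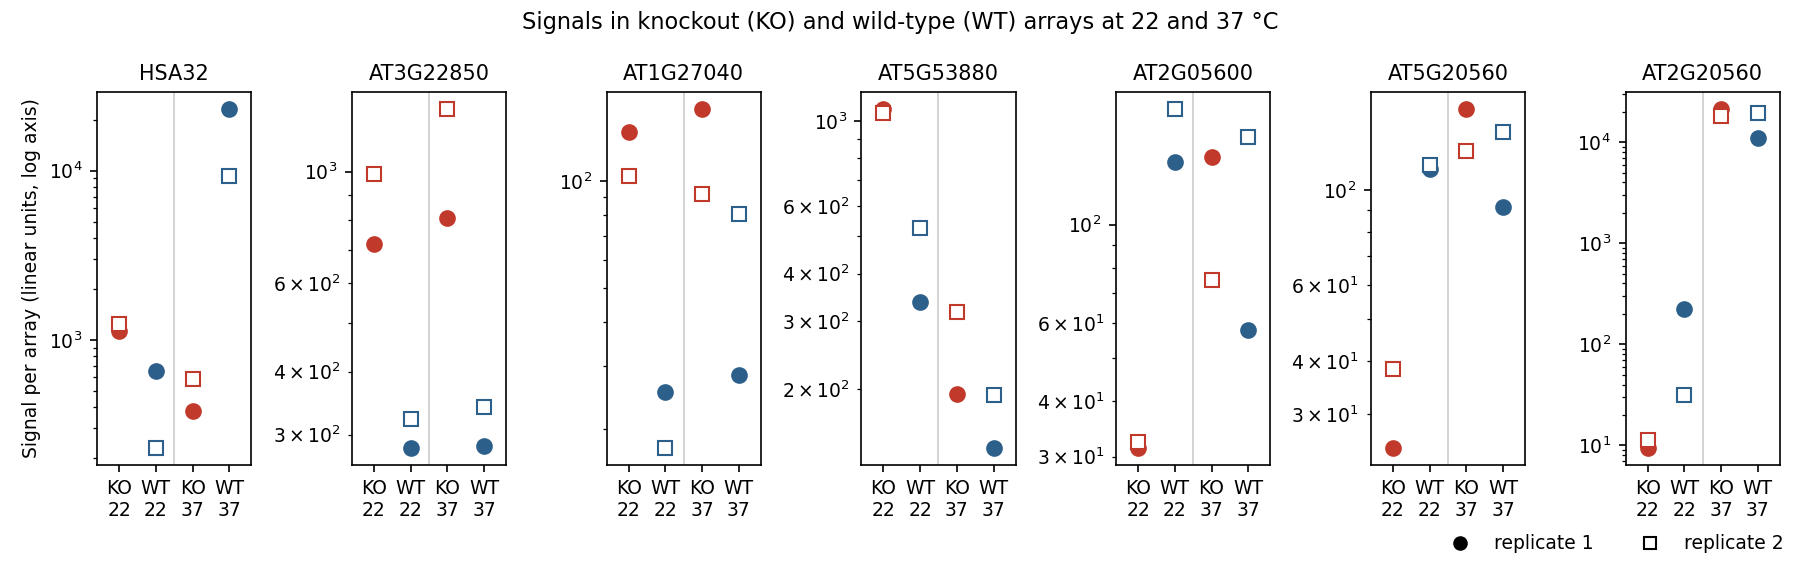
Signal on each array (log axis) for HSA32, the 3 other genes with the smallest p and the knockout higher, the 2 with the smallest p and the knockout lower, and the J-domain gene AT2G20560. Red marks the knockout and blue the wild type, filled circles replicate 1 and open squares replicate 2, at 22 °C (left of the line) and 37 °C (right). AT3G22850 is above wild type on every knockout array at both temperatures, whereas HSA32 is above wild type at 22 °C and below it at 37 °C.

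The genes just described were ranked on the comparison at 22 °C, and their values on the heated arrays are given beside it. The heated arrays are no independent check, since they shared the fit that gave the ranking and same-numbered arrays of a genotype deviated together at both temperatures. Of the 12 genes with the knockout higher, 7 were also higher in the heated knockout, and 4 of them without overlap between the genotypes. Of the 12 with the knockout lower, 6 were also lower in the heated knockout, and 4 without overlap. Over the 76 probe sets of the 2-fold rule with the knockout higher, 61 (80.3%) had a positive difference after heat and 21 (27.6%) had no overlap there. Among all tested probe sets these shares were 48.3% and 9.94%. Over the 49 with the knockout lower, 29 (59.2%) had a negative difference after heat and 8 (16.3%) had no overlap, beside 51.7% and 11.5% of all. The heated array of wild-type replicate 1 also stood apart from its group. With that heated array left out, 41 of the 76 and 25 of the 49 kept their sign on the heated arrays. Both sets were still those chosen with the control array of wild-type replicate 1. The share of all tested probe sets was not counted for this setting.

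**Figure D3:**
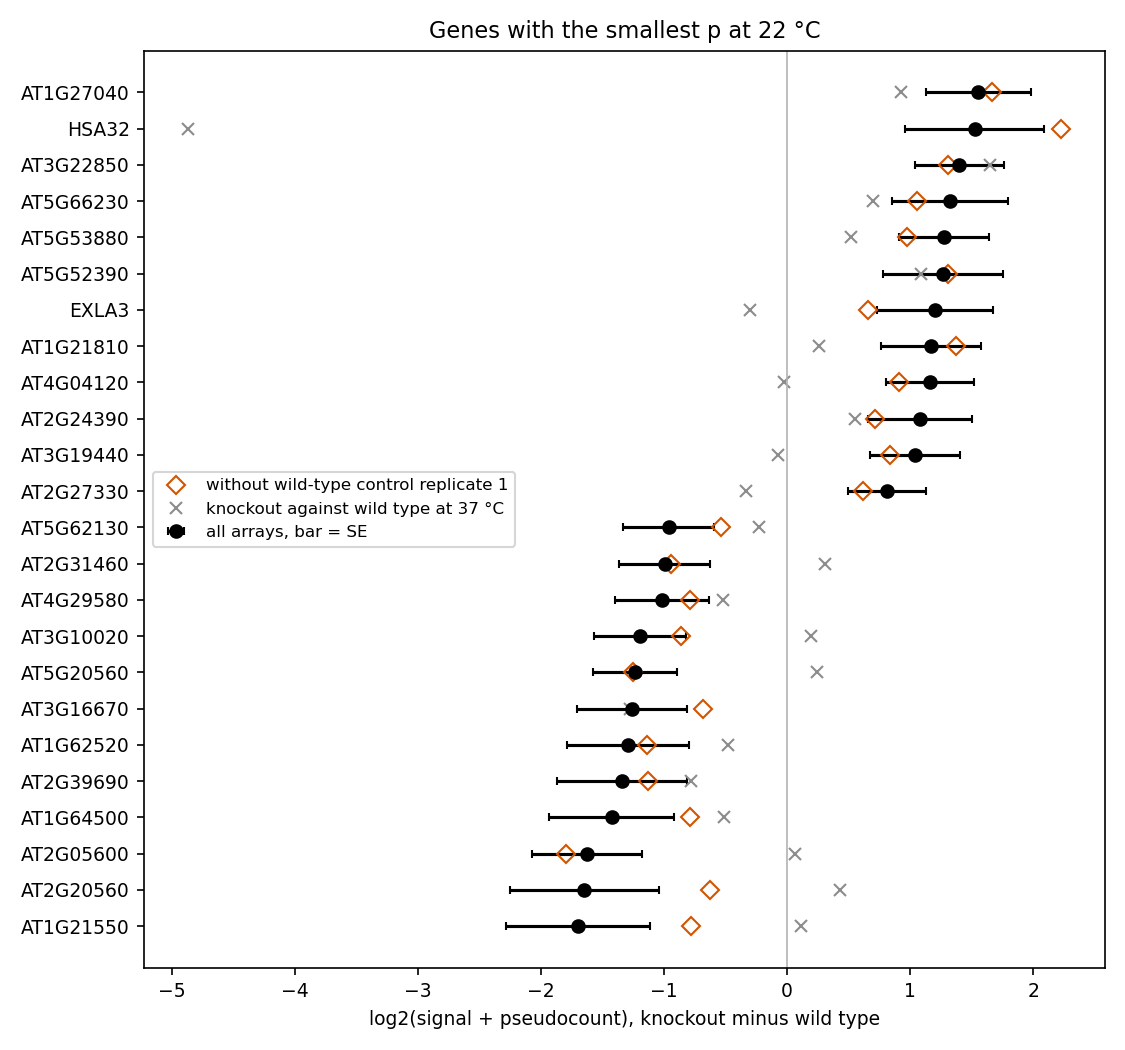
Log2 fold change of knockout over wild type at 22 °C for the 12 genes with the smallest p in each direction (black points, bars are limma's standard errors, n = 2 arrays per genotype), the same without wild-type control replicate 1 (open diamonds), and the value at 37 °C (grey crosses). Every diamond keeps the sign of its point, AT2G20560 moves to -0.63, and HSA32 is the gene whose cross lies far to the other side, at -4.87.

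The heat shock gene lists were described as groups. Of 10 tested small heat shock protein genes 0 passed and 0 had an unadjusted p under 0.05, and the median log2 fold change was -0.33 beside -0.00 for all tested probe sets. No overlap was seen in 4 with the knockout lower and in 1 with it higher, beside 9.49% and 11.7% of all probe sets. AT1G53540, a cytosolic small heat shock protein gene, read 77.4 and 58.1 in the knockout and 199 and 99.8 in wild type. AT1G54050 read 202.5 and 161 against 271 and 257.5, again without overlap. Their log2 fold changes were -0.83 and -0.48, and -0.42 and -0.45 without wild-type replicate 1. AT4G21870 went the other way, with 2957 and 2517 in the knockout against 508 and 2024 in wild type, so that the low value was that of wild-type replicate 1. It met the 2-fold rule at 1.39 ± 0.71, as did 0.477% of all probe sets with the knockout higher, and without that array its difference was 0.43. Without it the median of the list was 0.02. In the HSP70 family all 4 tested genes had a value below 0 (median -0.37, with -0.22 without wild-type replicate 1 and 0.14 without knockout replicate 1) and 0 passed, with AT3G09440 at 196 and 369.6 in the knockout and 596 and 371.5 in wild type, and Hsp70-2 at 44.4 and 152 against 139 and 132.5.

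Among 10 cochaperones 0 passed, and 1, AT2G20560, met the 2-fold rule with the knockout lower (0.308% of all probe sets did). Hop3, which bridges HSP70 and HSP90, read 36.1 and 81.9 in the knockout and 248 and 64.3 in wild type. Fes1A, a nucleotide exchange factor of HSP70, read 244 and 241 against 742 and 205. In both genes wild-type replicate 1 was the highest array, and wild-type replicate 2 was not above both knockout arrays. BZIP28, a membrane-bound transcription factor of the unfolded protein response, read 440 and 717 against 1129 and 773. Over these 25 heat-related genes 20 had a lower mean in the knockout and the median was -0.31, and 22 of the 25 were higher on wild-type replicate 1 than on wild-type replicate 2. Over all tested probe sets 52.0% were higher on that replicate. Without it the median of the 25 was 0.00 and 12 were lower in the knockout. No listed gene for HSP90, HSP100 or a heat shock factor had a probe set paired with a single gene.

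Cold and dehydration genes leaned the other way. All 4 tested members had positive values, with a median of 0.46, and 0 passed. The cold-regulated chloroplast protein gene COR15A read 238 and 165.5 in the knockout and 101 and 124 in wild type, without overlap, a log2 fold change of 0.69 ± 0.38 that became 0.57 without wild-type replicate 1. The dehydrin genes COR47 and LTI30, whose products protect membranes and proteins during water loss, had 0.53 ± 0.34 and 0.38 ± 0.40. COR47 read 7469 and 6486 against 3543 and 6518, so that without wild-type replicate 1 its difference was 0.09. The median of the list was 0.18 without that array.

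Cell wall expansion genes, which encode expansins and xyloglucan-modifying enzymes, had the highest median of the lists with 3 or more tested genes. Of 20 tested genes 18 had a value above 0 and the median was 0.61, but 0 passed, 1 had an unadjusted p under 0.05 (EXLA3, beside 0.302% of all) and 4 had no overlap with the knockout higher, beside 11.7% of all probe sets. EXLA1 read 5643 and 3367 in the knockout and 1037 and 4599 in wild type. XTH33 read 795 and 527 against 123 and 745.5. The summed signal of the 20 genes was 18659 and 11864 in the knockout and 5788 and 16395 in wild type, which puts wild-type replicate 2 between the knockout arrays and wild-type replicate 1 below all 3 of them. Without that array the median was -0.03 and 8 of 20 were above 0. Wild-type replicate 1 was also the lowest array for the stress-responsive zinc finger gene STZ, with 1383 and 405.5 in the knockout and 116 and 1056 in wild type. The same held for a pair of Aux/IAA genes of the auxin response, IAA29 at 1666 and 1146 against 319 and 1143, and IAA30 at 164 and 127 against 20.5 and 137. The median of the 8 auxin genes was 0.05, and GH3.17, an auxin-conjugating enzyme gene, had -0.54 ± 0.46, or -0.26 without wild-type replicate 1.

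**Figure D4:**
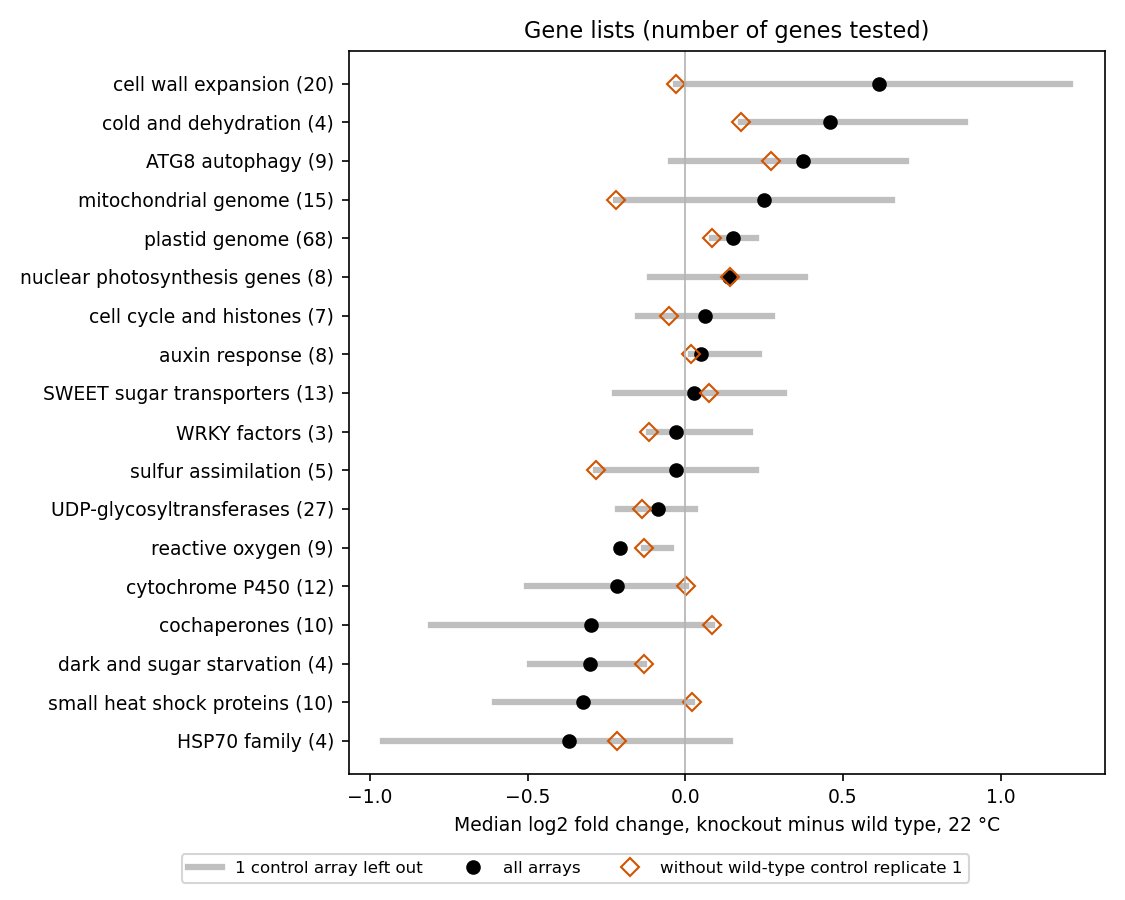
Median log2 fold change of knockout over wild type at 22 °C for each gene list with 3 or more tested genes (black points, all arrays), without wild-type control replicate 1 (open diamonds), and the span of the medians when each of the 4 control arrays is left out in turn (grey bars). The medians of cell wall expansion genes (0.61), cochaperones (-0.30) and small heat shock proteins (-0.33) lie near 0 without wild-type replicate 1.

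Plastid and mitochondrial transcripts were compared as a further pair of groups. Of 68 tested plastid genes 0 passed, 46 had a value above 0, and 10 had no overlap with the knockout higher while 0 had none with it lower, beside the 11.7% and 9.49% of all probe sets. The median was 0.15, and 0.08 without wild-type replicate 1. The ribosomal protein gene rps16 read 320.5 and 429.5 in the knockout and 117 and 260 in wild type (0.96 ± 0.41, or 0.47 without wild-type replicate 1), and the RNA polymerase gene rpoB read 151 and 219 against 70.2 and 148. The photosystem I gene psaI read 4837 and 5282 against 2636 and 3921. In these 3 genes wild-type replicate 1 was the lowest array. Of 15 tested mitochondrial genes 12 were above 0 (median 0.25) and 0 passed. Only 1 of them had no overlap, beside the shares of all probe sets above. This was ccb382, lower in the knockout, with 425 and 564 against 591 and 610 (-0.28 ± 0.41). All 15 were lower on wild-type replicate 1 than on replicate 2, as with the cytochrome oxidase gene cox2, at 352 and 112 in the knockout and 59.2 and 225 in wild type, and the cytochrome c maturation gene ccb206, at 347 and 154 against 105 and 218. Without wild-type replicate 1 the mitochondrial median was -0.22 and 2 of 15 were above 0.

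Nuclear photosynthesis genes differed little between the genotype means. The 8 tested genes had values between -0.02 and 0.27 with a median of 0.14, which was again 0.14 without wild-type replicate 1 but -0.11 without knockout replicate 1, and 0 of them had no overlap between the genotypes. PSAN read 19266 and 12361 in the knockout and 14027 and 13069 in wild type, and PSBW, of photosystem II, 18628 and 12859 against 13503 and 14239. All 8 were higher on knockout replicate 1 than on knockout replicate 2. The 9 ATG8 genes, whose products coat autophagosome membranes, showed the same split. All 9 were higher on knockout replicate 1, as in ATG8E, at 10360 and 5394 in the knockout and 3611 and 6632 in wild type, ATG8B, at 1820 and 935 against 838 and 942, and ATG8D, at 693 and 404 against 373 and 434. Their median was 0.37, and -0.05 without knockout replicate 1.

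Sulfur assimilation was listed because HSA32 resembles an archaeal enzyme of sulfonate synthesis. Of 5 tested genes 0 passed, the values ran from -0.40 to 0.19, and the median was -0.03 (-0.28 without wild-type replicate 1). APS4, an ATP sulfurylase gene, read 967.5 and 719 in the knockout and 1081 and 1146 in wild type without overlap, a log2 fold change of -0.40 ± 0.33. AT1G04770 read 138 and 145 against 242 and 143. Among 12 cytochrome P450 genes 9 had a value below 0 (median -0.22, and 0.00 without wild-type replicate 1), and 1 met the 2-fold rule with the knockout lower (0.308% of all probe sets did), CYP78A9, a gene known for its effect on organ size, at 25.4 and 73.0 against 226 and 114 (-1.35 ± 0.55, and -0.94 without wild-type replicate 1). CYP71B28 read 190 and 310.3 in the knockout and 773 and 249 in wild type, and CYP71B29 read 151 and 96.4 against 157 and 201.

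In the remaining lists 0 genes passed as well. The sugar transporter gene SWEET14 had 0.90 ± 0.40, with 105 and 83.3 in the knockout and 57.7 and 20.4 in wild type, and SWEET4 had 0.64 ± 0.41, or 0.11 without wild-type replicate 1, in a list of 13 with a median of 0.03. The glycosyltransferase gene UGT72E2 had -0.58 ± 0.30, with 112 and 106 against 165 and 192, in a list of 27 with a median of -0.09. Of 9 reactive oxygen genes (median -0.21), the glutathione transferase genes GSTU16 and GSTU27 had -0.76 ± 0.52 and 0.58 ± 0.39, and -0.13 and 0.22 without wild-type replicate 1. Medians were 0.06 for 7 cell cycle and histone genes, -0.03 for 3 WRKY factors and -0.30 for 4 genes of dark and sugar starvation. That last list holds IVD and MCCA, both of leucine breakdown, at -0.61 ± 0.60 and -0.51 ± 0.72. Without wild-type replicate 1 these were -0.10 and -0.17, and the median of the list was -0.13. The clock gene GI read 182 and 235 in the knockout and 337 and 295 in wild type (-0.54 ± 0.36). The thionin gene THI2.1, of the jasmonate response, read 81.2 and 182 against 60.6 and 51.2 (0.85 ± 0.40), and the senescence-associated gene SAG101 read 126 and 177 against 111 and 95.4 (0.44 ± 0.33). The arrays of these last 3 genes did not overlap between the genotypes. Among all probe sets 11.7% had no overlap with the knockout higher and 9.49% had none with it lower. Each of the 3 genes was the only tested member of its list, so it does not describe a group.

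The comparison at 22 °C was also set beside that at 37 °C through the test of their difference. Limma called 0 of 15919 probe sets for knockout against wild type at 37 °C (280, or 1.76%, at an unadjusted p under 0.05, 0.779% with the knockout higher and 0.98% with it lower) and 0 for the difference between the temperatures (88, or 0.553%). HSA32 read 378 and 589 in the heated knockout and 23175 and 9240 in heated wild type, and its interaction was -6.39 ± 0.80 (adjusted p = 0.42). For AT2G20560 the interaction was 2.08 ± 0.86 and for AT4G04120 it was -1.19 ± 0.51 (adjusted p = 1.00 for each). No gene named here is shown by these tests to differ between the genotypes at 1 temperature and not at the other.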

How the data were processed

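Groups and replicate numbers came from the sample titles. The authors deposited 1 signal intensity per probe set and array. No source used here names the software behind these values, but every array has a 2% trimmed mean of 500.04 to 500.07, so the deposited scaling was kept. Of 22810 probe sets, 64 controls and those with a mean intensity over the 8 arrays of 61.7 or lower (the dimmest 30%) were left out. This left 15919. The mean includes the arrays compared, so a dim gene could pass through the group where it is high. Values were analysed as log2(signal + 29.1), the added number being the 20th percentile of all values. The resulting fold changes understate the change of dim genes. Limma 3.58.1 (R 4.3.3) fitted a mean per group over 8 arrays with a variance trend (4 residual and 4.79 prior degrees of freedom). Two-sided p-values were adjusted by Benjamini and Hochberg's method over the 15919 probe sets, with a threshold of 0.05. The small number of arrays limits precision.

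The platform annotation paired 13513 probe sets with 1 gene, 503 with several and left 8730 unnamed here, controls aside. Of the tested probe sets, 8790 had 1 gene. Symbols were updated through RefSeq (TAIR10.1), where 77 gene numbers were not found. The annotation's own build is not given, so genes are placed by locus and order only. Named genes were HSA32, the 12 with the smallest p in each direction whose 2 arrays per genotype did not overlap, and up to 3 members of each list by smallest p. The genes AT4G21310, AT1G52560, EXPA18, SBT3.12, B70 and B120 were added as neighbours or markers. The mitochondrial gene cox2 was named outside that rule. Lists came from locus numbers and symbol patterns, and the plastid and mitochondrial lists from RefSeq chromosomes and organelle gene symbols, because the files hold no organelle locus numbers. Cyclophilins, which share the CYP symbol, were left out of the cytochrome P450 list by annotation. The brightest probe set stood for a locus. Lists were described by counts and medians, with no test of a list. Members and lists were chosen with earlier results of these data known. Alternatives were the pseudocount, the filter, the normalization, the moderation, the arrays fitted, a replicate block and each array left out.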

Additional observations from a re-analysis of the deposited data

Results flagged for a closer look

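HSA32 had both knockout arrays above both wild-type arrays at 22 °C (log2 fold change 1.52) and both below them after heat (-4.87). The test of that difference gave -6.39 ± 0.80 with limma's adjusted p = 0.42. AT2G27330 was higher on both knockout arrays at 22 °C (0.81, with 222 and 245.5 in the knockout and 102 and 142 in wild type) and lower on both after heat (-0.33, with 55.3 and 70.2 against 84.6 and 87.6). Its interaction of -1.14 ± 0.45 had adjusted p = 1.00. CYP71B29 was lower on both knockout arrays at 22 °C (-0.46) and higher on both after heat (0.74), with an interaction of 1.21 ± 0.64 and adjusted p = 1.00.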

How the results depend on the processing

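The count of 0 probe sets called at 22 °C was the same under all 20 alternatives. At an unadjusted p under 0.05 the count was 82 on all arrays, 357 of 22746 with no filter, 31 with the dimmest 50% left out, 168 with only the 4 control arrays, and between 26 (leaving out the first wild-type control array) and 732 (leaving out the second) with 1 array fewer. With a replicate block it was 84, with 0 called. Same-numbered arrays deviated together within a genotype (correlation across probe sets 0.54 in wild type and 0.52 in the knockout) and in opposite ways between genotypes (-0.24 to -0.39), so the numbers were not taken to pair the genotypes. With a block that crosses the numbers between genotypes, chosen after seeing the data, 580 had an unadjusted p under 0.05 and 0 were called. HSA32 ranged from 0.82 to 2.23 over all alternatives and passed in none.

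Of 1375 refits of single genes, 17 changed sign and none changed its side of the threshold. All 17 left out control arrays. Over the fits that leave out 1 array, EXLA1 (AT3G45970) ranged from -0.076 to 2.04, XTH33 from -0.19 to 2.15, Fes1A from -1.51 to 0.22, cox2 from -0.13 to 1.39 and STZ from -0.47 to 2.43. Each had its changed sign without wild-type control replicate 1, and the same values without both arrays of wild-type replicate 1 (added after seeing the data). Hsp70-2 ranged from -1.17 to 0.13, PSAE-1 from -0.010 to 0.54, PSAN from -0.13 to 0.51 and PSBW from -0.11 to 0.43, with the changed sign without knockout control replicate 1, where cox2 had -0.09. AT4G21310 ranged from -0.20 to 0.17, with 0.09 without knockout control replicate 2. The cause was not tested beyond leaving out those arrays. No detection calls were used, so dim signals such as those of AT4G21323 could be judged only by their level.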

Other observations

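Some probe sets not paired with a gene were also among those with the smallest p at 22 °C, and none of them passed. The smallest p of all belonged to 1 of these, with 4.80 and 21.0 in the knockout and 101 and 104 in wild type (log2 fold change -1.68 ± 0.40, limma's adjusted p = 1.00). It was also lower in the heated knockout (-1.02). Its knockout values at 22 °C lay under the pseudocount of 29.1, so the size of this fold depends on it. A second unnamed probe set read 106.7 and 83.9 in the knockout and 733.9 and 250.5 in wild type, with -1.90 ± 0.58 at 22 °C and -0.25 after heat. A further one, at 692 and 737 in the knockout and 1539 and 1262 in wild type, had -0.94 ± 0.31 at 22 °C and -0.84 after heat.

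The control probe set for 25S ribosomal RNA, left out of all tests, was low on both knockout control arrays. After heat it read 850.1 and 13530 in the knockout and 20677 and 15787 in wild type. The control probe set for 5S ribosomal RNA split the arrays in another way, with 1360 and 14.8 in the knockout and 20 and 549.7 in wild type. The part of these differences in the results above was not tested.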
